A study of Mus musculus with 2 samples.

Results

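Spinous keratinocytes of newborn mouse dorsal skin were taken as the cells rich in the suprabasal keratins Krt1 and Krt10. A barcode entered the set, called the spinous gate here, with at least 1000 unique molecular identifiers (UMIs, counted RNA molecules), at least 500 genes and under 15% mitochondrial UMIs. Per 10000 UMIs it also needed at least 100 UMIs of Krt1 plus Krt10, under 50 of the granular genes Lor, Flg and Flg2, and under 20 of the fibroblast collagens Col1a1 and Col3a1. The cells were thus chosen by these measured values, so the levels of these genes are a description only. The gate held 879 of the 10436 barcodes that passed the depth and mitochondrial filters, 241 of them control and 638 induced.

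The study, whose title concerns the miR-200 family, sebaceous gland fate and SOX9, profiled skin at postnatal day 3 with a 10x Genomics 3′ assay of polyadenylated RNA. One library, the control, is of genotype Wildtype and the other, the induced library, of genotype miR-200b induced. The treatment label is Dox for each of them. Epidermal and dermal suspensions were pooled in a ratio of 30 to 70. The labels give neither the construct, nor the cells in which it is active, nor the number of animals behind a library. With 1 library per genotype there was no test between genotypes, and each difference below compares these libraries. All intervals are 95% intervals and cover counting error only.

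Keratinocytes divide in the basal layer on the basement membrane, where they make Krt5 and Krt14. On moving up into the spinous layers they stop dividing, switch to Krt1 and Krt10, and build the dense desmosomes that give the layer its spiny look. They then load the proteins, lipids and proteases from which granular and cornified cells assemble the skin barrier. miR-200b belongs to a microRNA family known for keeping epithelial cells epithelial. Its members pair with messenger RNAs through the seed, bases 2 to 8, and lower their levels.

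The label was checked on spinous genes that the gate did not use. Levels are in CPM, UMIs of a gene per 1000000 UMIs summed over the gate, with the control value first and the induced value after it. Krt1 was at 27461 and 21624 CPM. Krt10 was at 27900 and 23464 CPM. Krtdap, a secreted differentiation-associated peptide, was at 9097 and 10279 CPM in the gate against 1099 and 1829 CPM in Krt5/Krt14 cells. The Krt5/Krt14 cells were 1874 control and 1970 induced barcodes with at least 100 UMIs of Krt5 plus Krt14 and under 100 of Krt1 plus Krt10 per 10000. Relative to them, 8 of 9 tested spinous genes outside the gate were over 2-fold higher in control spinous cells, against 5.77% of all genes, and 8 of 8 in induced spinous cells, against 10.2%. Granular cells met the other limits of the gate but held at least 50 Lor, Flg and Flg2 UMIs per 10000. Against these, 1 of 9 tested in the control library was over 2-fold higher and 4 lower, beside 5.95% and 11.3% of all genes. In the induced library 0 of 8 were higher and 6 lower, beside 4.25% and 9.78%. These genes thus set the gate apart from Krt5/Krt14 cells, and not from granular cells. Krt2, a late keratin of adult epidermis, had 2 and 6 UMIs, so it could not be compared. Among markers of other cells, those of immune, endothelial, and muscle or pericyte cells summed to at most 4.84 CPM in either library. Fibroblast markers summed to 33.2 and 26.7 CPM, melanocyte markers to 6.54 and 35.6 CPM and sebocyte markers to 127 and 85.3 CPM. The fibroblast sum includes Col1a1, at 6.31 and 4.34 CPM, and Col3a1, at 14.0 and 10.3 CPM, both limited by the gate. The 4 outer root sheath markers summed to 66.5 and 149 CPM, of which Sox9 made up 56.7 and 139 CPM, and in deeper cells with under 20 Krt79 UMIs per 10000 Sox9 was at 48.0 and 141 CPM. Pdgfra, Ptprc, Cd207, Cldn5 and Kdr, which define fibroblasts, leukocytes, Langerhans cells and endothelium, were at 0 in the control gate, and Cd207 also in the induced gate. In fibroblast-rich barcodes, which should lack these keratins, Krt1 plus Krt10 had a median of 3.08 and 4.43 UMIs per 10000. Those barcodes had medians of 9574 and 6199 UMIs, and 0 of 575 and 1 of 233 reached the keratin level of the gate.

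The libraries' gates differed in make-up before any gene was compared. The control gate held 8709576 UMIs with a median of 32930 per cell, and the induced gate 20258277 UMIs with a median of 33650. Under 3000 UMIs lay 5 control barcodes (2.07%) and 200 induced barcodes (31.3%), with medians of 1205 and 1060 UMIs. These shallow barcodes carried 0.0987% and 1.09% of the UMIs of their gates, so they weigh on counts of barcodes and little on summed levels. Their median Krt1 plus Krt10 was 161 and 137 UMIs per 10000 and their median Krt5 plus Krt14 50.8 and 117. At least 10 fibroblast-marker UMIs per 10000 were found in 56 induced gate barcodes, of which 1 had 3000 UMIs or more. Whether the shallow barcodes are intact cells, fragments or free RNA was not tested. The deeper cells numbered 236 and 438. Their median Krt1 plus Krt10 was 468 and 426 UMIs per 10000, with quartiles of 248 to 686 and 238 to 610. Their median Krt5 plus Krt14 was 70.1 UMIs per 10000 in the control library, with quartiles of 6.52 to 271. It was 5.14 in the induced library, with quartiles of 1.17 to 29.1. Control cells thus had more basal keratin RNA per cell. The deeper cells in the plot of keratin levels form a continuum along that axis. The plot holds gate cells only, so barcodes on both sides of the Krt1 plus Krt10 threshold were counted. Within 25 UMIs per 10000 above the Krt1 plus Krt10 threshold lay 15 control and 84 induced barcodes, and within 20 below it lay 21 and 47. With at least 3000 UMIs the counts were 13 and 18 above it and 18 and 19 below it. No barcode sequence was shared between the libraries' gates, although 74 occurred in both libraries.

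**Figure D1:**
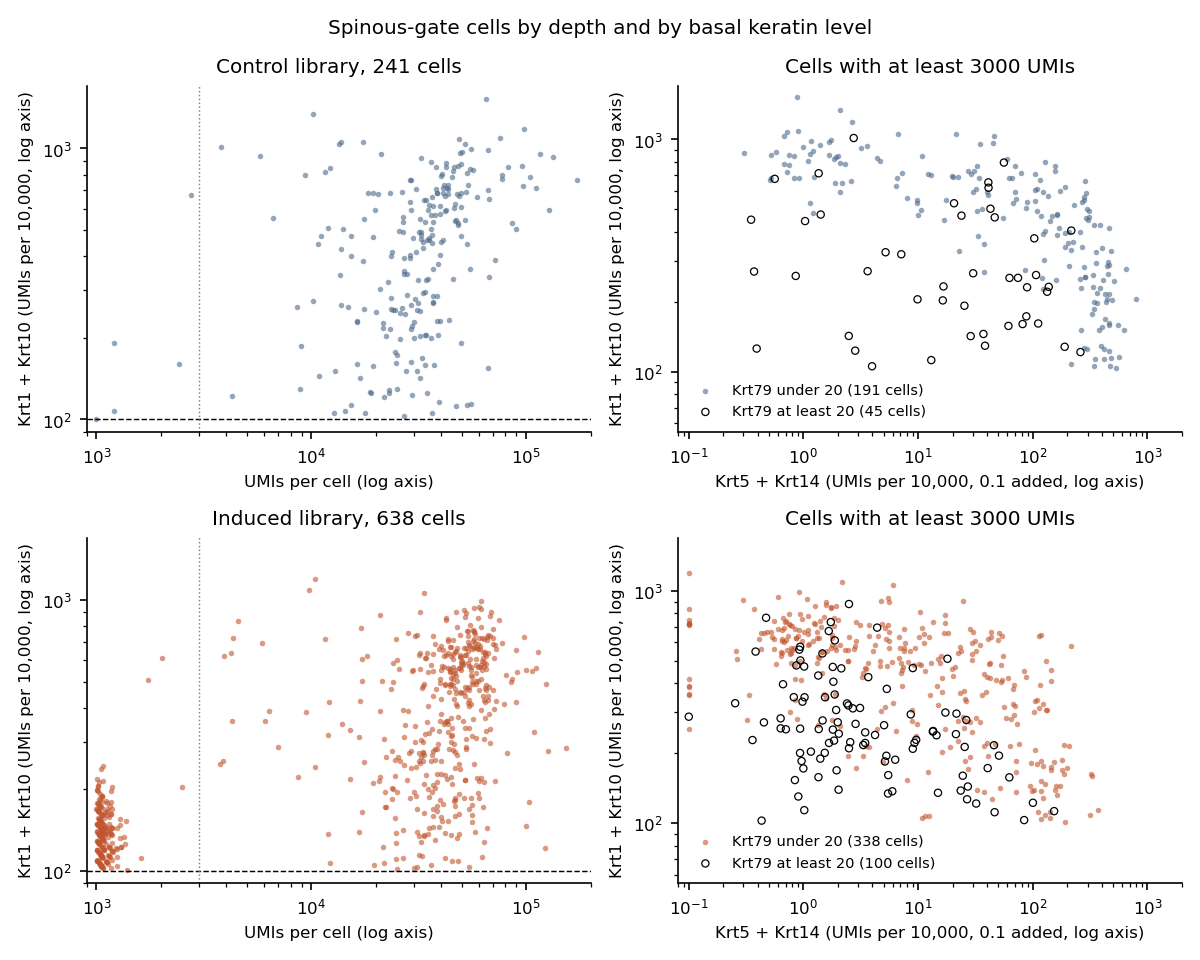
Each point is a cell of the spinous gate, in the control library (top, blue) and the induced library (bottom, orange). Left panels plot Krt1 plus Krt10 against UMIs per cell with the gate threshold dashed and 3000 UMIs dotted, and show 200 induced barcodes in the shallow cluster against 5 control barcodes; right panels plot it against Krt5 plus Krt14 for deeper cells, with open circles for the 45 control and 100 induced cells rich in Krt79.

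A second axis was Krt79, a keratin of the upper hair follicle canal. At least 20 Krt79 UMIs per 10000 were found in 45 of 236 deeper control cells (19.1%) and 100 of 438 deeper induced cells (22.8%), with 2 and 6 cells at 5 to 20. In the control library the Krt79-rich cells also carried the follicle markers Krt17, at 8760 against 304 CPM in the other cells, Cst6, at 4815 against 162 CPM, and Defb6, at 274 against 0.56 CPM. The spinous keratin Krt77 was at 2565 against 412 CPM. In the induced library the same markers were less split. Krt17 was at 11683 CPM in Krt79-rich cells and 3086 CPM in the others, and Defb6 at 759 and 203 CPM. The gate is therefore a range of keratin levels that spans interfollicular spinous cells and cells with upper follicle markers. The 7 upper follicle markers summed to 5426 CPM in the control gate and 9040 CPM in the induced gate, with none at 0. Krt17, also counted among the stress keratins, made up 1837 and 4756 CPM of these sums and Krt79 2460 and 3305 CPM. Cst6 was at 1008 and 580 CPM, Lrig1 at 24.3 and 6.02 CPM and Gata6 at 3.56 and 1.88 CPM. Because the gates differ in make-up, results below are also given, where the value matters to a count or a call, with both libraries weighted to the same make-up over 4 bins of Krt5 plus Krt14 (under 5, 5 to 50, 50 to 150 and 150 or more UMIs per 10000), here called matched. For some, it is given in deeper cells without the Krt79-rich ones and matched, here called the core of 191 control and 338 induced cells.

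The microRNAs that share the seed of miR-200b, and the pair that differs from them inside the seed, are printed from RefSeq on GRCm38.p6, 5′ to 3′, with bases 2 to 8 in capitals. They show why miR-200b, miR-200c and miR-429 were scored as 1 group and miR-200a and miR-141 as another.
miR-200b: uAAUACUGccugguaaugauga
miR-200c: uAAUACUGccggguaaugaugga
miR-429: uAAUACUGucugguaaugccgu
miR-200a: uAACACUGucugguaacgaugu
miR-141: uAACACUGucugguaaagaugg
Mature miR-200b lies at chr4:156055685-156055706 on the minus strand, and miR-200a and miR-429 lie on the same strand nearby. All 3 fall inside Gm13648 (chr4:156052715-156059802, GRCm38, minus strand), a transcript that overlaps Ttll10 on the same strand. The assay does not count mature microRNAs, so Gm13648 was the only readout of the locus. Gm13648 had 7 UMIs in control spinous cells (0.80 CPM) and 9140 in induced spinous cells (451 CPM). The log2 ratio of these CPM values, relative to the median gene and with no CPM added, had an interval of 8.18 to 10.5. In the induced library it was also present in Krt5/Krt14 cells, at 675 CPM, and at a lower 122 CPM in the granular gate, whose cells meet the other limits of the spinous gate but have at least 50 UMIs of Lor, Flg and Flg2 per 10000. After each cell was thinned to 2000 UMIs, it was found in 0 of 238 control cells and in 48.6% of the 440 induced cells. At that depth a count of 0 allows up to 1.26% of control cells with a UMI. At full depth the shares, over all 241 and 638 gate cells, were 2.90% and 67.9%. The 638 include 198 induced barcodes of under 2000 UMIs, which were left out of the thinning. Among fibroblast-rich barcodes the thinned shares were 0 of 569 and 6.10% of 213. Within the induced spinous gate it was lower in Krt79-rich cells, at 192 CPM, than in the others, at 517 CPM.

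Barcodes of the spinous gate took a larger share of the induced library. With the shallow barcodes counted, the share of filtered barcodes was 4.65% in the control library (Clopper-Pearson interval 4.10 to 5.26) and 12.1% in the induced library (11.3 to 13.0), a ratio of 2.61 (2.24 to 3.04). Without them, among barcodes with at least 3000 UMIs, the shares were 4.70% and 9.24%, a ratio of 1.96 (1.67 to 2.31). With a Krt1 plus Krt10 threshold of 200 the ratio was 1.85 (1.55 to 2.21). Cells of 2 suspensions were pooled and there was 1 library per genotype, so genotype, mixing and dissociation cannot be told apart here. The granular gate held 20 control and 74 induced cells.

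Gene levels were then set side by side as CPM over the gate. A gene is called higher or lower when the induced value is at least 2-fold from the control value, relative to the median gene and with 5 CPM added to both. Of 4802 genes averaging 20 CPM or more over the libraries, 254 (5.29%) were higher and 152 (3.17%) lower. Without centring on the median gene the split was 204 and 186. The median gene lay at -0.09 on the log2 scale before centring. With matched Krt5 plus Krt14 make-up, 206 genes were higher (4.24% of 4854) and 130 lower (2.68%), of which 187 and 118 were among the genes called in the whole gate. In the core, 236 (4.95%) were higher and 149 (3.12%) lower. In deeper cells low in Krt5 plus Krt14, under 20 UMIs per 10000, 237 (5.06%) were higher and 151 (3.23%) lower. The lists below give tested members only. Matched and core values apply the 20 CPM filter anew, so their tested members can differ from those of the whole gate. A member can reach 20 CPM through 1 library alone, so list counts are a description beside these background shares.

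**Figure D2:**
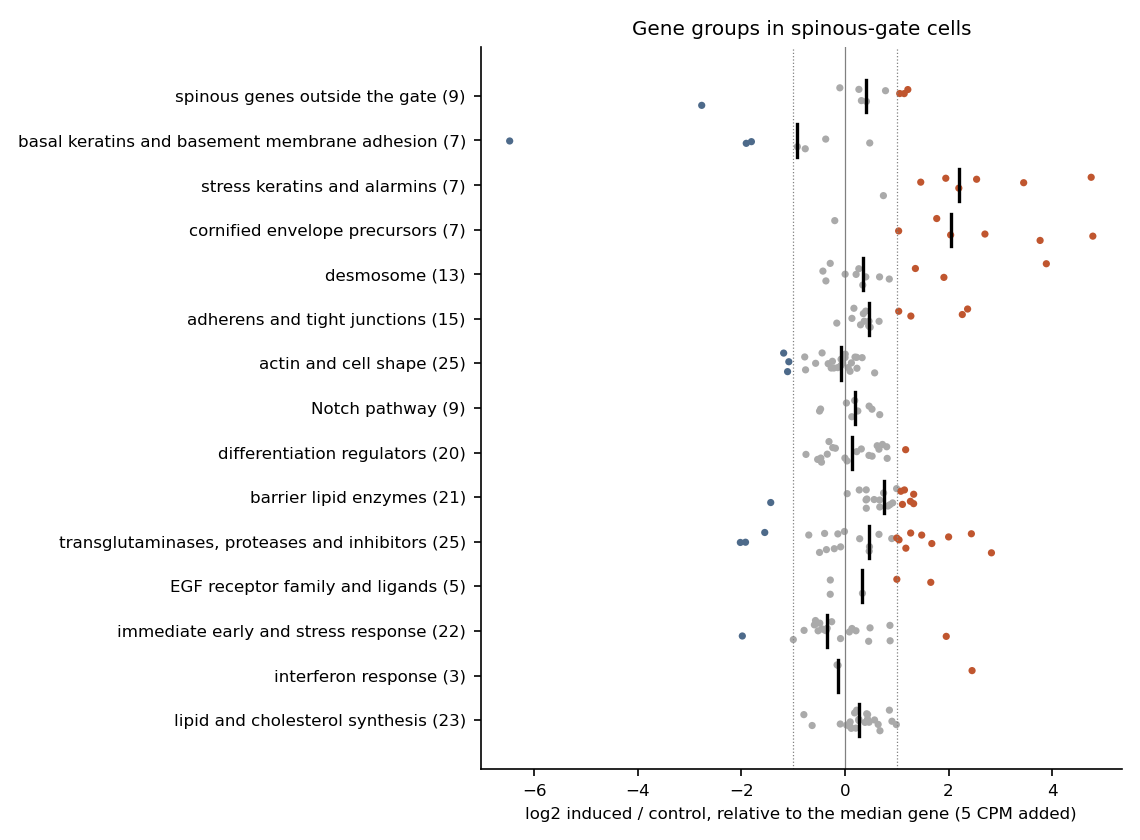
Each point is 1 tested gene of a group, placed by its log2 ratio of induced over control CPM in the spinous gate (5 CPM added, relative to the median gene), with the number of tested genes in brackets. Black bars are group medians, dotted lines mark 2-fold, and orange and blue points lie past it; stress keratins and cornified envelope genes have medians of 2.20 and 2.04, and the actin group one of -0.08.

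Among spinous genes outside the gate, of 9 tested, 3 were higher and 1 lower, with a median log2 ratio of 0.42 that was 0.20 when matched, where 1 was higher. Lypd3, a surface protein of suprabasal cells, was at 593 CPM in the control and 1295 CPM in the induced gate, a log2 ratio of 1.21, or 1.11 when matched and 0.91 as a mean over cells. Over the deeper cells its median was 5.33 and 12.3 UMIs per 10000, and the upper quartile of control cells (6.94) lay below the lower quartile of induced cells (9.81). Calm4, an epidermal calcium-binding protein, was at 4379 and 9078 CPM, a log2 ratio of 1.14, or 0.69 when matched. Sbsn, a secreted product of suprabasal cells, was at 1923 and 3758 CPM, with 1.06 and 0.72 when matched. Matched for make-up, neither Calm4 nor Sbsn passed 2-fold. Mt4, a metallothionein of stratified epithelia, was the member that was lower, at 48.5 and 2.37 CPM (-2.77). Krtdap, Dmkn and Ly6d, with 3967 to 10279 CPM in both libraries, lay between -0.10 and 0.42.

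Basal genes divided into Krt15 and the rest. Krt15, a basal keratin high in newborn epidermis and follicle, was at 3308 CPM in control spinous cells and 30.0 CPM in induced spinous cells, a log2 ratio of -6.47. It was lower in each of the 4 bins of Krt5 plus Krt14, from 6211 and 30.6 CPM in the bin richest in them to 912 and 5.15 CPM in the poorest. Its matched ratio was -6.10 and its core ratio -6.78. After thinning, 73.5% of control and 3.18% of induced cells had a Krt15 UMI, against 12.8% and 5.63% of fibroblast-rich barcodes. The cells kept for thinning had median depths of 33161 and 45121 UMIs in the spinous gate and 9615 and 6510 in fibroblast-rich barcodes. Over all 241 and 638 spinous cells, the unthinned shares were 94.2% and 31.7%. In Krt5/Krt14 cells Krt15 was at 5686 and 360 CPM. Krt14 and Krt5, the main basal pair, behaved otherwise. Krt14 was at 9672 and 2417 CPM (-1.91) and Krt5 at 2590 and 691 CPM (-1.81), but matched ratios were -0.41 and -0.38. In deeper cells with under 20 UMIs of Krt5 plus Krt14 per 10000 they turned to 0.06 and 0.95. Since these genes define the bins, those values only describe the make-up. Of the 4 other tested genes of basement membrane adhesion, Col17a1, Itga6, Dst and Plec lay between -0.92 and 0.48, and none passed 2-fold.

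Stress keratins and alarmins had a median log2 ratio of 2.20. These keratins mark follicle sheaths and wounded or inflamed epidermis. Of 7 tested members, 6 were higher and 0 lower, and the median was 2.12 when matched and 3.24 in the core. Krt6a was at 23.1 CPM in control and 705 CPM in induced cells, a log2 ratio of 4.75. Its near copy Krt6b was at 8.61 and 135 CPM (3.45), and reads of the pair can be split between them. After thinning, 0.84% of control and 34.8% of induced cells had a Krt6a UMI, against 0.176% and 3.76% of fibroblast-rich barcodes. Unthinned, over all 241 and 638 gate cells, the shares were 3.32% and 56.7%. Krt6a was thus detected in many but not all induced cells and in few control cells. Krt75, the defining keratin of the companion layer, stood at 1.49 and 0.69 CPM. Krt16 was at 712 and 2587 CPM (1.95) and Krt17 at 1837 and 4756 CPM (1.46). The Krt17 ratio was 1.09 when matched and 3.30 in the core, which leaves out the Krt79-rich cells where control Krt17 was highest. The alarmins S100a8 and S100a9, calcium-binding danger signals, were at 15.4 and 82.7 CPM (2.20) and at 20.6 and 135 CPM (2.54). Il1rn, the interleukin-1 receptor antagonist, was at 40.6 and 66.6 CPM (0.74). Il1a, Il1b and Il18 were under 20 CPM on average.

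Cornified envelope precursors, the proteins cross-linked under the membrane of the dying cell, were higher in induced cells for 6 of 7 tested genes, with a median of 2.04. With the 20 CPM filter applied anew, 4 were higher when matched, with a median of 2.03, and 4 in the core, with a median of 3.52. The other 33 of 40 listed genes in the matrix averaged under 20 CPM over the libraries, which 1 library alone can exceed. Over all members with at least 1 UMI the median was 0.16. Sprr1b, a small proline-rich envelope protein, was at 24.3 and 754 CPM, a log2 ratio of 4.79, and was higher in all 4 bins. Its thinned share of cells was 1.68% and 45.7%, and in fibroblast-rich barcodes 0.176% and 1.88%. Over all gate cells its unthinned share was 13.3% and 63.8%. Ivl, the envelope scaffold involucrin, was at 17.9 and 135 CPM (2.70). Hrnr, a late filaggrin-like protein, was at 5.40 and 35.1 CPM (2.04), and Crct1 at 8.73 and 38.9 CPM (1.77). Sprr2d had 1 control UMI and 1222 induced UMIs. With no CPM added, its log2 ratio relative to the median gene had an interval of 6.65 to 14.4. Sprr2 genes are near copies of each other, so its identity within the family is uncertain, and Sprr2a3 was at 32.6 and 25.8 CPM (-0.20). The 11 granular markers summed to 1080 and 2823 CPM, of which Asprv1 made up 495 and 1872 CPM. Klk7 was at 285 and 202 CPM and Casp14 at 136 and 178 CPM. Lor was at 61.5 and 286 CPM and Flg at 88.9 and 143 CPM, both limited by the gate. With the granular limit lowered to 20 UMIs per 10000, the median of the group was 1.65. The part of granular-stage RNA in the difference was not tested.

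**Figure D3:**
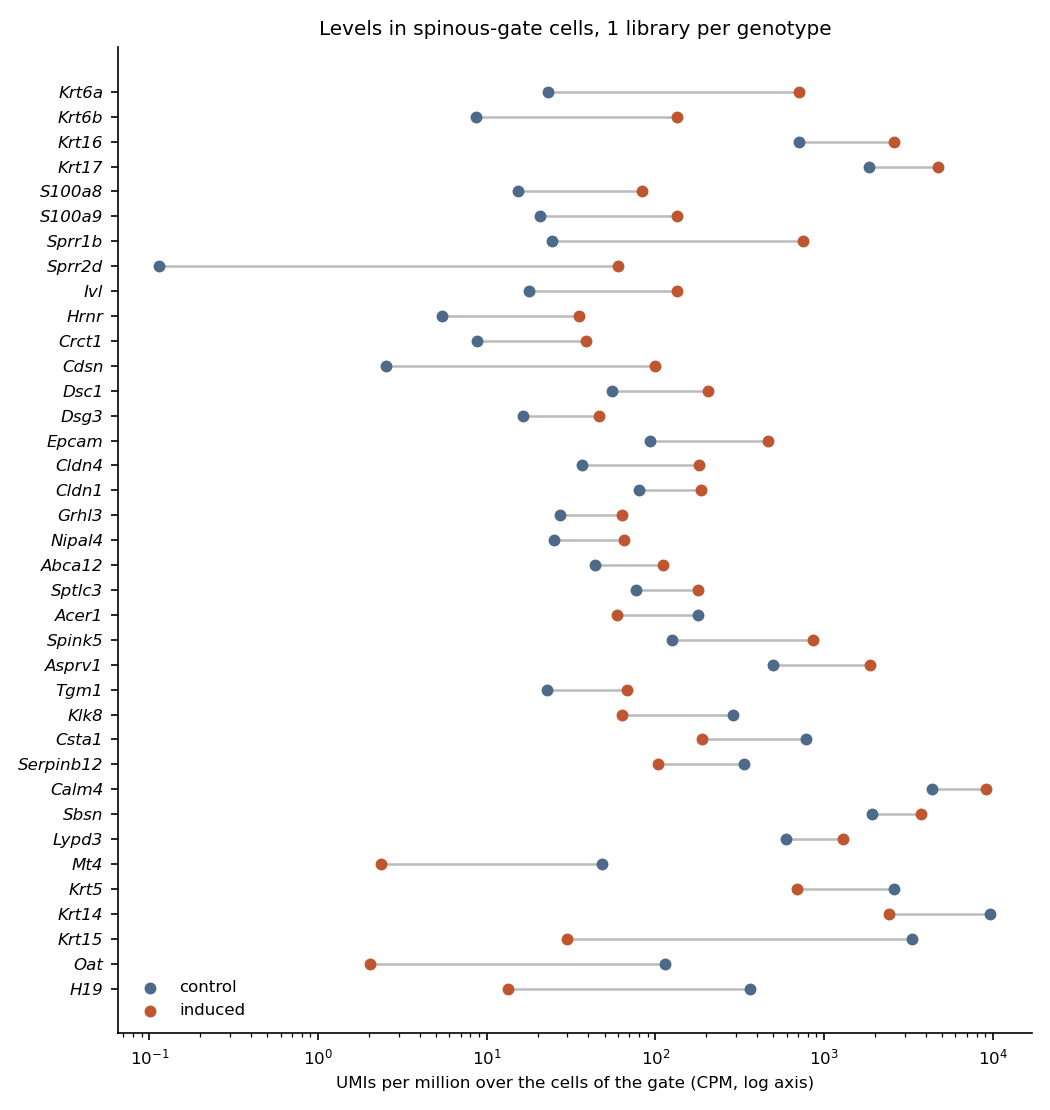
Dots give the CPM (log axis) of each gene over the control gate (blue) and the induced gate (orange), joined by a line, for genes described in the text. Each dot is 1 library; Krt15 goes from 3308 to 30.0 CPM, Sprr1b from 24.3 to 754 CPM, and Krt5, Krt14, Klk8, Csta1, Serpinb12, Acer1, Mt4, Oat and H19 also lie lower in the induced library.

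Desmosome genes, which make the junctions the layer is named for, were mostly within 2-fold. Of 13 tested, 3 were higher and 0 lower, with a median of 0.34, and the other members lay between -0.43 and 0.86. Cdsn, corneodesmosin, which reinforces desmosomes of the outer layers, was at 2.53 and 99.5 CPM (3.89). Dsc1, a desmosomal cadherin of upper layers, was at 54.9 and 206 CPM (1.91). Dsg3, a desmosomal cadherin of lower layers, was at 16.4 and 46.5 CPM (1.36, or 0.94 with 20 CPM added). Dsp, the plaque protein desmoplakin, was at 1118 and 1669 CPM (0.67). Dsg1a was at 496 and 359 CPM (-0.37) and lower in all 4 bins. Dsg1b, its near copy, was at 38.8 and 28.7 CPM (-0.28).

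Adherens and tight junction genes were higher for 4 of 15 tested and lower for 0, with a median of 0.46. Epcam, an adhesion protein of simple and fetal epithelia that is low in postnatal interfollicular epidermis, was at 92.5 and 467 CPM (2.37). Over the deeper cells its median was 0.37 and 4.37 UMIs per 10000, and the upper quartile of control cells (1.04) lay below the lower quartile of induced cells (3.18). The core ratio was 2.92. Control Epcam was concentrated in Krt79-rich cells, at 294 against 47.8 CPM, while induced cells had 722 and 404 CPM. Among fibroblast-rich barcodes the thinned share with an Epcam UMI was 3.16% and 5.63%, against 15.1% and 58.9% of spinous cells. Unthinned, over all 241 and 638 spinous cells, the shares were 68.5% and 82.0%. The tight junction claudins Cldn4 and Cldn1 were at 36.5 and 182 CPM (2.27) and at 79.3 and 186 CPM (1.27). Nectin4, an adherens junction receptor, was at 113 and 221 CPM (1.04, matched 0.76). Cdh1, encoding E-cadherin, was at 173 and 215 CPM (0.40). Tjp1, a tight junction scaffold, was at 25.1 and 20.3 CPM (-0.16). The other 11 tested members lay between -0.16 and 0.66.

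Barrier lipid enzymes make and export the ceramides of the skin barrier. Of 21 tested, 6 were higher and 1 lower, with a median of 0.75. Matched, 3 were higher and the median was 0.54. In the whole gate, 20 of the 21 had a ratio above 0. Abca12, the lipid transporter of lamellar granules, was at 44.0 and 110 CPM (1.33), and Nipal4, a gene of inherited ichthyosis, at 24.9 and 65.4 CPM (1.33, just under 2-fold with 20 CPM added). Sptlc3, a subunit of the first enzyme of sphingolipid synthesis, was at 76.4 and 178 CPM (1.26). In deeper cells low in Krt5 plus Krt14, Abca12 and Sptlc3 were just under 2-fold (0.95 and 0.96). Elovl1 elongates fatty acids, Ugcg adds glucose to ceramide and Cers3 makes ceramide from long acyl chains. Their ratios were 1.15, 1.11 and 1.08, and 0.88, 0.95 and 0.90 when matched. Acer1, which breaks ceramide down, was the member that was lower, at 179 and 58.9 CPM (-1.43, matched -1.72), and it was lower in all 4 bins. Asah2, another ceramidase, was at 22.7 and 29.9 CPM (0.42), within 2-fold. Cholesterol and fatty acid synthesis genes had 0 of 23 past 2-fold and a median of 0.27. Msmo1, at 164 and 310 CPM (0.99), and Scd2, at 72.2 and 36.8 CPM (-0.79), were their extremes.

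Transglutaminases, proteases and their inhibitors shape and shed the cornified layer. Of 25 tested, 9 were higher and 3 lower, with a median of 0.47. Spink5, the inhibitor that restrains epidermal kallikreins, was at 125 and 858 CPM (2.83). Over the deeper cells its median was 0.31 and 4.62 UMIs per 10000, and their control upper quartile (1.26) lay below the induced lower quartile (1.56). Asprv1, a protease that trims profilaggrin, was at 495 and 1872 CPM, with a matched log2 ratio of 1.70. Tgm1, the main envelope cross-linking enzyme, was at 22.7 and 67.6 CPM (1.48). Blmh, which degrades filaggrin to free amino acids, was at 204 and 468 CPM (1.27, matched 0.95). Kallikreins, the shedding proteases, differed among themselves. Klk8 was at 289 and 63.0 CPM (-2.02), and Klk5, Klk7 and Klk11 had ratios of -0.14, -0.39 and -0.08. Klk6 was at 4.59 and 43.8 CPM (2.44), but with Krt79-rich cells left out the ratio was 0.50, and in the core 0.38. Its induced level was 899 CPM in the Krt5 plus Krt14 bin of 150 or more, which held 43 barcodes (18 of at least 3000 UMIs), and at most 9.78 CPM in the other bins. The inhibitors were split. The protease inhibitor Csta1 was at 782 and 190 CPM (-1.92) and Serpinb12 at 334 and 104 CPM (-1.55, or -0.98 when matched on Krt1 plus Krt10), while Serpinb2 was at 63.4 and 200 CPM (1.68). Csta1 has near copies in the Stfa family, of which Stfa3 was at 10472 and 7660 CPM (-0.36).

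Regulators of differentiation were mostly within 2-fold. Of 20 tested members, most of them transcription factors, 1 was higher and 0 lower, with a median of 0.13. Grhl3, a driver of barrier formation, was at 27.3 and 63.3 CPM (1.17) and higher in all 4 bins. It was under 2-fold as a mean over cells (0.84), which weights the shallow barcodes equally, and with 20 CPM added (0.89). Klf4 and Cebpb were at 658 and 976 CPM (0.66) and at 459 and 760 CPM (0.82), and Hopx was at 104 and 174 CPM (0.81). Pou3f1, at 321 and 176 CPM (-0.75), was on the other side. Trp63, the master factor of stratified epithelia, was at 79.1 and 62.0 CPM (-0.24). Of 9 tested Notch genes, the pathway that triggers the spinous programme, none passed 2-fold. The receptor Notch1 was at 68.0 and 44.4 CPM (-0.47), the target Hes1 at 91.2 and 59.2 CPM (-0.49) and the feedback gene Nrarp at 153 and 208 CPM (0.52). Of 5 tested genes of the EGF receptor family, 2 were higher, and none of those averaging 20 CPM or more was when matched. Areg, a ligand, was at 8.61 and 35.2 CPM (1.66, matched 1.21), and the receptor Erbb3 at 42.3 and 83.7 CPM (matched 0.96).

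The actin group had 0 of 25 higher and 3 lower, with a median of -0.08. Flna, an actin cross-linker, had 315 control and 243 induced UMIs, a log2 ratio of CPM of -1.18 (matched -0.90). Rhob, a small GTPase, was at 187 and 78.3 CPM (-1.11), and Cfl2, an actin-severing protein with 2 miR-200b matches, at 45.5 and 17.3 CPM (-1.08). None of these 3 passed 2-fold as a mean over cells, at -0.76 for Flna, -0.83 for Rhob and -0.64 for Cfl2, or with 20 CPM added, at -0.74 for Flna and Cfl2 and just short of 2-fold for Rhob. Cfl2 was at -0.83 in deeper cells low in Krt5 plus Krt14. Tmsb4x, Rhoa and Cdc42 were lower in all 4 bins without passing 2-fold, at -0.78, -0.76 and -0.57. Immediate early genes, which respond to stimuli and to dissociation, had 1 of 22 higher and 1 lower, with a median of -0.35. Fosb was at 256 and 56.9 CPM (-1.98), Fos at 1737 and 1245 CPM (-0.39) and Atf3 at 521 and 242 CPM, just short of 2-fold. The small heat shock protein Hspb1 was at 706 and 2579 CPM (1.96), while Hspa1a was at 744 and 1281 CPM (0.87). Of 3 tested interferon-response genes, Ifitm3 was at 58.4 and 321 CPM (2.45) and the other members at -0.15 and -0.13. Only 2 of 31 cell cycle genes averaged 20 CPM or more in the gate. These were Pcna with 479 and 647 UMIs (-0.61) and Slbp at 33.1 and 33.0 CPM (0.09).

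Outside the lists, the 8 genes with the highest ratios were described. Orm1, an acute phase plasma protein gene, was at 3.10 and 287 CPM (5.26). Its thinned share of cells was 0 of 238 in the control and 35.5% of 440 in the induced gate. Over all 241 and 638 gate cells, the unthinned shares were 6.22% and 65.7%. In fibroblast-rich barcodes the thinned share was 0.176% and 0.939%. Cnfn, a cornified envelope protein that the fixed list did not hold, was at 11.1 and 326 CPM (4.45), and Hal, the histidase that makes urocanic acid from histidine, at 32.7 and 335 CPM (3.26). The ratio was 4.17 for 2310046K23Rik, 3.64 for Pkib, a protein kinase A inhibitor, 3.40 for Akr1c18, a steroid dehydrogenase, and 3.26 for Gm94. 2310081O03Rik had 1 control and 1499 induced UMIs. With no CPM added, its log2 ratio relative to the median gene had an interval of 6.94 to 14.7. All 8 were higher in each of the 4 bins. Pkib holds 3 miR-200b matches in its 3′ untranslated region (3′ UTR) and was higher all the same.

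The 8 genes with the lowest ratios, with 5 CPM added, included H19, an imprinted growth-restraining RNA, at 364 and 13.4 CPM (-4.24, core -3.76). Its thinned share of cells was 29.0% and 1.59%, against 23.0% and 17.4% of fibroblast-rich barcodes. Over all gate cells its unthinned share was 68.0% and 10.5%. Control H19 was highest in the bin richest in Krt5 plus Krt14, at 878 CPM, and lay at 74.4 CPM in the poorest. In the induced library these bins had 36.5 and 3.15 CPM. Cyp2f2, a cytochrome P450, was at 95.5 and 0.59 CPM (-4.07). With no CPM added, and relative to the median gene, the log2 ratios of Cyp2f2 and Oat lay lower than that of H19. The intervals of Cyp2f2, Oat and H19 were -8.20 to -6.43, -6.20 to -5.26 and -4.86 to -4.50, respectively. Oat, which links ornithine to glutamate and proline, was at 113 and 2.02 CPM (-3.98). Its thinned share of spinous cells was 19.7% and 0.682%, while that of fibroblast-rich barcodes was 28.8% and 26.8%. The unthinned shares over all gate cells were 85.9% and 5.64%. Oat was thus at similar thinned shares in the fibroblast-rich barcodes of both libraries, and the difference between cell types was not tested. Alad, of heme synthesis, was at 110 and 7.75 CPM (-3.08). The ratio was -2.81 for 2610528A11Rik, -2.78 for Cotl1, an actin-binding protein, -2.64 for Mt2, a metallothionein, and -2.59 for Krt73, an inner root sheath keratin. Krt73 came with the inner root sheath markers, whose 5 genes summed to 147 and 19.4 CPM, and 4 deeper control and 0 deeper induced cells held at least 10 such UMIs per 10000. Without cells that carried markers of other cell types, the Krt73 ratio was -0.90. As a mean over cells, the Mt2 ratio was -0.95.

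Genes with a miR-200b match had a median ratio slightly below 0. A match is the 7-base sequence CAGTATT in the sense strand of the longest annotated 3′ UTR, which pairs with bases 2 to 8 of miR-200b, miR-200c and miR-429. It occurs in 13.4% of the 20846 genes with an annotated 3′ UTR. It is a description of letters and not a measured site. Of 709 tested genes with a match, 22 (3.10%) were higher and 45 (6.35%) lower, with a median log2 ratio of -0.14, against 5.21% and 3.12% of all 4737 tested genes with a 3′ UTR. The median was -0.15 when matched on Krt5 plus Krt14 and -0.18 in the core. The medians ran from 0.02 for 4028 genes with 0 matches to -0.13 for 570 with 1 match, -0.21 for 113 with 2 and -0.36 for 26 with 3 or more. Genes with more matches have longer 3′ UTRs, with medians of 885 bases at 0 matches and 2488 bases at 1 or more. The genes were therefore also split into 4 classes of 3′ UTR length of about equal size. In each class the median was lower with a match than without one. The medians with and without were -0.44 and -0.04 in the shortest class, which held 23 genes with a match, then -0.19 and 0.03, -0.14 and 0.04, and -0.13 and 0.07 in the longest. For comparison, medians were -0.06 for the miR-200a and miR-141 match CAGTGTT, 0.08 for let-7, -0.0048 for miR-203 and 0.04 for miR-205, the last pair being abundant epidermal microRNAs. In Krt5/Krt14 cells of the same libraries the miR-200b group had a median of -0.20, and in granular cells -0.14.

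**Figure D4:**
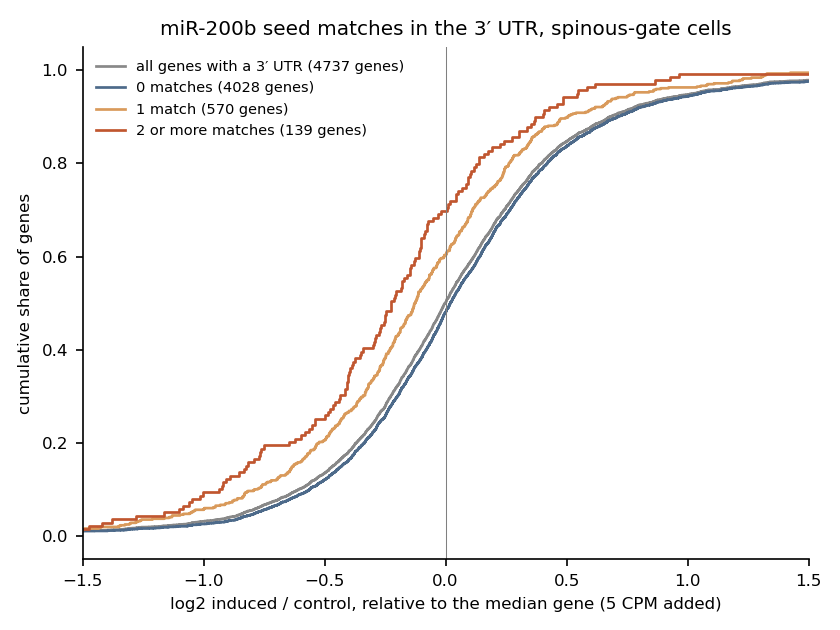
Curves give the cumulative share of tested genes (y axis) up to a given log2 ratio of induced over control in the spinous gate (x axis, 5 CPM added, relative to the median gene), by number of miR-200b seed matches in the 3′ UTR. The curve of 139 genes with 2 or more matches lies left of that of 570 genes with 1 match, which lies left of that of 4028 genes with 0 matches.

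The 5 genes with a match and the lowest ratios were Oat, Slc16a1, Fosb, Csta1 and Nfia. Their sites, with 8 bases on either side and the match in capitals, show where the letters lie and that the flanks differ. They were read from GENCODE vM21 transcripts on GRCm38 in the sense of the gene.
Oat, chr7:132557655-132557661, minus strand: tttattttCAGTATTtctttgaa
Slc16a1, chr3:104656528-104656534, plus strand: aatgtatgCAGTATTtcaagcag
Slc16a1, chr3:104656849-104656855, plus strand: ttgtttttCAGTATTtgcaaaac
Fosb, chr7:19304047-19304053, minus strand: cccctgtgCAGTATTatgctatg
Csta1, chr16:36122138-36122144, minus strand: ttgtttctCAGTATTgtgtcaac
Nfia, chr4:98111642-98111648, plus strand: ccttttccCAGTATTtcctgaat
Nfia, chr4:98113538-98113544, plus strand: tacaatgtCAGTATTtgggatgt
Nfia, chr4:98117118-98117124, plus strand: cttaaattCAGTATTacttgtgt
Slc16a1, a lactate transporter, had a ratio of -2.35 with 379 control and 80 induced UMIs, and Nfia, a nuclear factor I transcription factor, one of -1.72 with 361 and 166 UMIs. Oat overlaps Fgfr2 on the same strand, and Slc16a1 overlaps Gm43581 and Gm43585, so reads in the overlaps have an uncertain source. All 5 genes were lower in each of the 4 bins. They were chosen for their low ratios, so this adds no support to the group value.

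Placed between the layers, the genes picked for the plot of levels by layer had 3 shapes. Between the libraries, 104 genes (1.81% of 5754) were higher and 231 (4.01%) lower in Krt5/Krt14 cells, and 227 (5.24% of 4336) and 192 (4.43%) in granular cells. Of 254 genes higher in spinous cells, 152 were tested in Krt5/Krt14 cells, where 107 had the same sign and 33 were called higher. Of 152 lower genes, 136 were tested there, 124 had the same sign and 48 were called lower. In granular cells 220 of 233 and 78 of 82 had the same sign, and 93 and 53 were called. Krt15, Ifitm3 and Klk8 differed in the same direction in Krt5/Krt14 cells, all spinous bins and granular cells. Ifitm3, an interferon-induced membrane protein, was at 296 and 1495 CPM in Krt5/Krt14 cells and 3.20 and 127 CPM in the spinous bin poorest in basal keratins. Krt6a parted above Krt5/Krt14 cells. It was at 135 and 173 CPM in Krt5/Krt14 cells and at 1.1 and 1537 CPM in granular cells. The third shape was a crossing. Spink5 was at 149 and 26.3 CPM in Krt5/Krt14 cells and at 213 and 1230 CPM in the spinous bin poorest in basal keratins. Cdsn was at 70.9 and 12.8 CPM below and at 5.34 and 168 CPM in that spinous bin. Csta1 crossed the other way, from 98.9 and 179 CPM in Krt5/Krt14 cells, within 2-fold (0.90), to 782 and 190 CPM in the gate. These layers come from the same libraries, the Krt5/Krt14 cells include follicle keratinocytes, and the difference between layers was not tested.

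**Figure D5:**
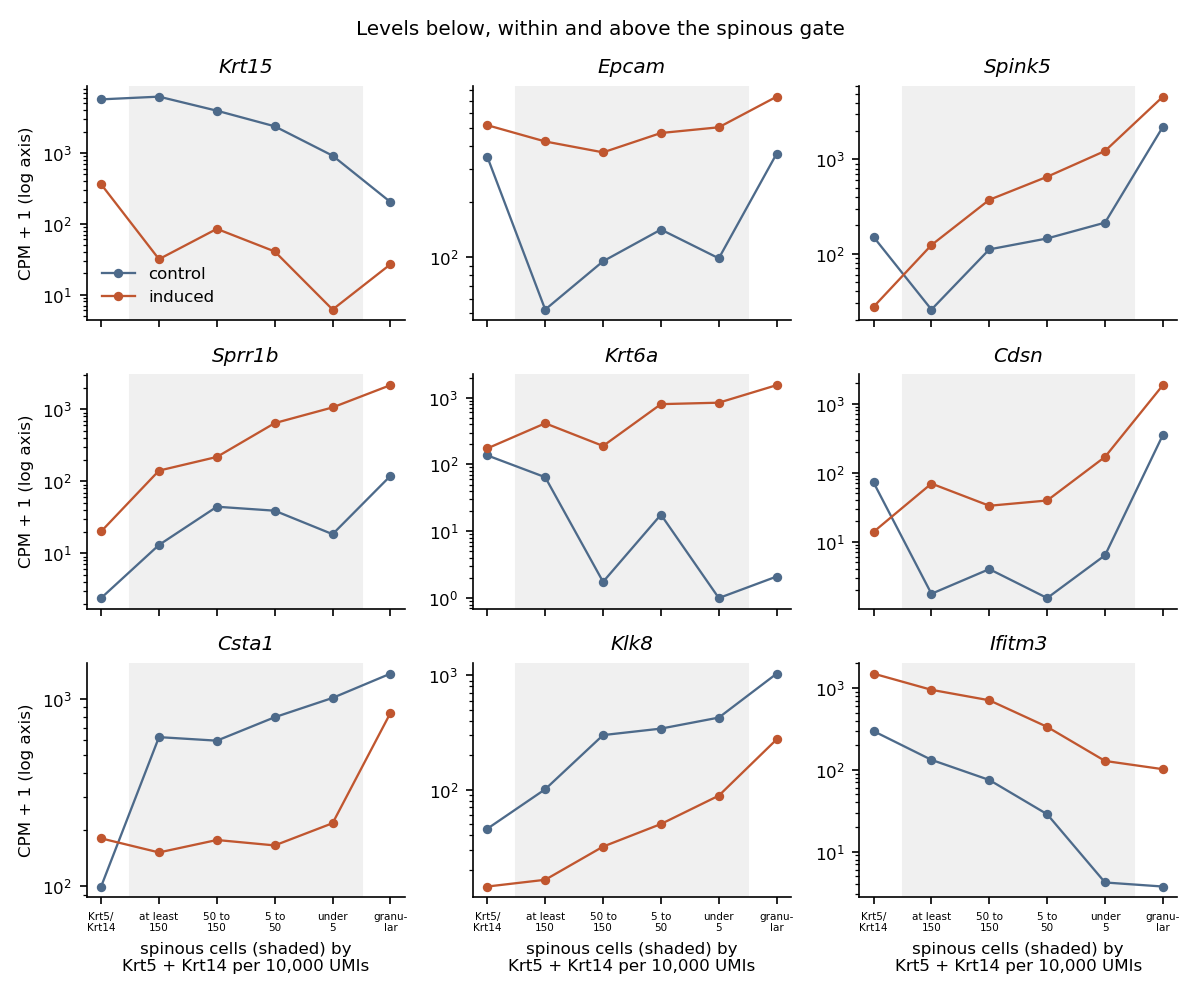
Lines give CPM plus 1 (log axis) for the control library (blue) and the induced library (orange) in Krt5/Krt14 cells, in 4 bins of spinous cells from rich to poor in Krt5 plus Krt14 (shaded) and in granular-gate cells. The bins hold 87, 43, 53 and 58 control and 43, 228, 150 and 217 induced barcodes, of which 86, 41, 53 and 56 and 18, 60, 144 and 216 have at least 3000 UMIs; Krt15 and Klk8 lie lower and Ifitm3 higher in the induced library at every step, while Spink5, Cdsn and Csta1 cross between Krt5/Krt14 cells and the gate.

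Within each library, the gates can also be compared with each other, as a description, since keratin levels chose the cells. From Krt5/Krt14 to spinous cells, 17 of 19 tested barrier lipid enzymes were higher in the induced library, against 10.2% of all genes, and 7 of 20 in the control library, against 5.77%. For cornified envelope precursors these counts were 4 of 5 and 0 of 2. Cell cycle genes were lower for 15 of 16 tested in the induced library, against 8.34% of all genes. In the control library they were lower for 27 of 27, against 9.58%. Genes entered by their mean over both gates compared, so a gene high in 1 gate alone was tested through that gate. Between the libraries, 29 of 31 cell cycle genes averaged 20 CPM or more in Krt5/Krt14 cells and 2 in the spinous gate. Their lower spinous level was thus close to fixed by the filter. For cornified envelope precursors these numbers were 2 and 7, and for barrier lipid enzymes 13 and 21. Towards the granular gate, 19 of 26 barrier lipid enzymes in the induced library and 20 of 26 in the control library were over 2-fold lower in spinous than in granular cells, against 9.78% and 11.3% of all genes. None was higher in either library, where 4.25% and 5.95% of all genes were. In both libraries most barrier lipid genes were thus lower in the spinous gate than in granular cells.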

How the data were processed

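The deposited values were raw UMI counts per gene and barcode, made by the authors with Cell Ranger 6.0.0 on mm10, per the submitters' processing notes; cell-calling settings are not given in the sources used here. The matrices held 32285 genes, 9072 control and 9114 induced barcodes, and 100409201 and 119705137 UMIs. Members, gene lists, thresholds and the rule for named genes were chosen with earlier results of these data known. Counts were summed over gate cells and given as CPM. Ratios had 5 CPM added and were centred on the median gene, for genes averaging 20 CPM or more. Shares have Clopper-Pearson intervals at 95%, and a count of 0 allows 3 counts. The calling step, tested on simulated data, recovered the seeded changes. Cells were thinned to 2000 UMIs for shares of cells with a UMI, leaving out 3 control and 198 induced spinous cells. Unthinned shares are over all cells of the gate and include them.

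Named were the gate genes and Gm13648, up to 3 genes past 2-fold in each direction per list (or the most abundant), the 8 highest and 8 lowest ratios outside the lists, and the 5 lowest with a miR-200b match; other list members are named as examples after their values were seen. The 3′ UTRs were the longest per gene in GENCODE vM21 (20846 genes), and 32158 gene identifiers matched it. Doublets were kept, since Scrublet in scanpy 1.11.5 called 3 control and 1 induced barcodes and had not worked. Removing the 7% of barcodes with the highest scores (7 control and 72 induced gate cells) was an alternative. Other alternatives changed the gate thresholds, added CPM, filter, scaling and weighting. Those on Krt79, on cells low in Krt5 plus Krt14 and on the core, and the miR-203 and miR-205 lists, were added after seeing the data. Python 3.11.15, numpy 2.4.6, scipy 1.17.1 and pandas 2.3.3 were used.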

Additional observations from a re-analysis of the deposited data

Results flagged for a closer look

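For 5 named genes that averaged 20 CPM or more in both layers, the induced-to-control ratio past 2-fold in spinous cells had the opposite sign, also past 2-fold, in a neighbouring layer of the same libraries, and the difference was not tested. The log2 ratio of Krt5 was -1.81 in spinous cells and 2.08 in granular cells, where it stood at 67.7 and 277 CPM. Cdsn was at 3.89 in spinous cells and -2.02 in Krt5/Krt14 cells, Spink5 at 2.83 and -2.23, and Klk6 at 2.44 and -2.60. The spinous ratios of Krt5 and Klk6 depended on the make-up of the gate. Krt5 was at -0.38 when matched and 0.95 in deeper cells low in Krt5 plus Krt14, and Klk6 at 0.38 in the core and 0.04 in those low cells. Areg was at 1.66 in spinous cells and -1.05 in granular cells, which numbered 20 and 74. Below that level in granular cells, Krt73 was at -2.59 in spinous and 2.16 in granular cells, and Mt2 at -2.64 and 1.86.

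A keratin signal also lay in barcodes outside the analysed set. Of the barcodes that failed the depth, gene or mitochondrial filter, 369 of 3894 (9.48%, interval 8.57 to 10.4) in the control library and 1384 of 3856 (35.9%, 34.4 to 37.4) in the induced library met the keratin, granular and collagen thresholds of the gate. Inside the gate, 5 control and 200 induced barcodes had under 3000 UMIs. These had a lower median Krt1 plus Krt10 than the deeper cells, 161 and 137 against 468 and 426 UMIs per 10000.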

How the results depend on the processing

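The ratio of spinous shares was 2.61 as reported, 1.85 with a Krt1 plus Krt10 threshold of 200, 1.96 with at least 3000 UMIs, and 2.37 to 2.72 under 5 other settings. Against 254 higher and 152 lower genes, 20 CPM added gave 160 and 75, and a mean of at least 5 CPM 408 and 237. With every gene of 1 UMI or more, 319 were lower and 358 higher. Without centring, 52.3% of calls were higher, against 62.6%. The other settings left these counts within 1.5 times. Krt14 and Krt5 turned to 0.060 and 0.95 in deeper cells low in both. Of 1021 values of 64 named genes under alternatives, 973 stayed on the same side of 2-fold, and 18 genes went under 2-fold in at least 1 alternative. Within 2-fold, signs turned for Krt1 (0.0038) and Krt10 (0.14) when matched on Krt1 plus Krt10 and for Pcna (0.16) as a mean over cells. Of 396 list medians under alternatives, 379 stayed within a rank interval around the reported median, set by the spread of the list's members, and 17 left it. All 40 counts between layers stayed within 1.5 times. The basal list median was 0.63 as a mean over cells, which weights the shallow induced barcodes equally, against -0.92. It was also above 0 in deeper cells low in Krt5 plus Krt14, at 0.22, and was -0.13 when matched. No paired analysis was possible because there is 1 library per genotype. Depth limits genes under 20 CPM, and 1 library per genotype limits every difference. The lists for miR-124, miR-1 and miR-122 were not run.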
